A study of Phaseolus vulgaris with 4 samples.

Results

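The embryo proper of the common bean seed expressed a group of 107 genes abundantly and at a level at least 8 times that of the suspensor. They were chosen by their measured values: a level of 50 RPKM or more in each embryo proper library, and the lower embryo proper value at least 8 times the higher suspensor value. RPKM scales the reads of a gene to its length and to the depth of the library. The 107 genes were 0.510% of the 20961 genes listed in at least 1 library, and 6.89% of the 1554 genes that reached 50 RPKM in both embryo proper libraries. The rule used all 4 libraries and the contrast between the regions, so the size and direction of that difference are given as a description, with no test.

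The study compared the 2 regions of the globular embryo in Phaseolus vulgaris, cultivar G19833, with 2 biological replicate libraries of embryo proper and 2 of suspensor. Both groups came from seeds of 1.6 to 2.0 mm fixed 6 days after pollination, so they share cultivar, stage and fixation. Each region was cut out of 6 micron paraffin sections by laser microdissection, and 5 ng of RNA was amplified before sequencing. The labels do not say how many embryos went into a library or whether both regions came from the same plants, and the spread between 2 replicates may be partly technical.

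After the zygote divides, the embryo proper gives rise to the cotyledons and the embryonic axis, and most of its cells divide actively at the globular stage, when its outer layer becomes distinct from the inner cells. The suspensor anchors the embryo in the seed, passes nutrients and hormones to it, and later degenerates. In the genus Phaseolus the suspensor is large, and its basal cells carry giant polytene chromosomes. The files pair no gene ID with a product name, and 0 of the 107 IDs matched the RefSeq table of this species used here. No role is given to any of the genes, and the region labels could not be checked against known markers. Chromosomes are read from the gene IDs. The IDs are printed for the most abundant gene and for the gene with the largest difference, and the other genes are given by chromosome and by rank in embryo proper mean.

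The authors' RPKM values move in steps of 1 read, from which the reads behind them were recovered. The library totals were 60900034 and 73408617 reads in embryo proper replicates 1 and 2 and 56813099 and 55135334 in suspensor replicates 1 and 2. Each of the 107 genes had at least 462 reads in embryo proper replicate 1 and 699 in replicate 2, so counting error was small there. In the suspensor the median was 72 reads in replicate 1 and 263 in replicate 2, and the lowest counts were 0 and 8. Intervals and limits from these reads cover counting error only, since amplified reads without molecular identifiers are not independent molecules.

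The 107 genes ranged from 53.1 to 13299 RPKM in embryo proper mean, with a median of 133 RPKM. Of these, 9 had a mean of 1000 RPKM or more, 28 lay between 200 and 1000, 31 between 100 and 200, and 39 between 50 and 100. By library, the median was 118 RPKM in embryo proper replicate 1 and 126 RPKM in replicate 2, against 0.733 RPKM in the first suspensor library and 3.07 RPKM in the second. Both embryo proper libraries were alike in the middle of the group, whereas the suspensor libraries were not. The median ratio of embryo proper mean to suspensor mean was 59.3, and 212 without suspensor replicate 2. In material cut from tissue, fewer cells that express a gene and less RNA per cell cannot be told apart. In the fit across the whole table, all 107 were called higher in embryo proper, where 5.55% of the 15169 tested genes were called in that direction (limma, adjusted p under 0.05). The rule used the same contrast, so nothing is read from that count. With no filter on low values, or with either suspensor library left out, limma called 0 of the 107, all of which then had an unadjusted p under 0.05.

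**Figure D1:**
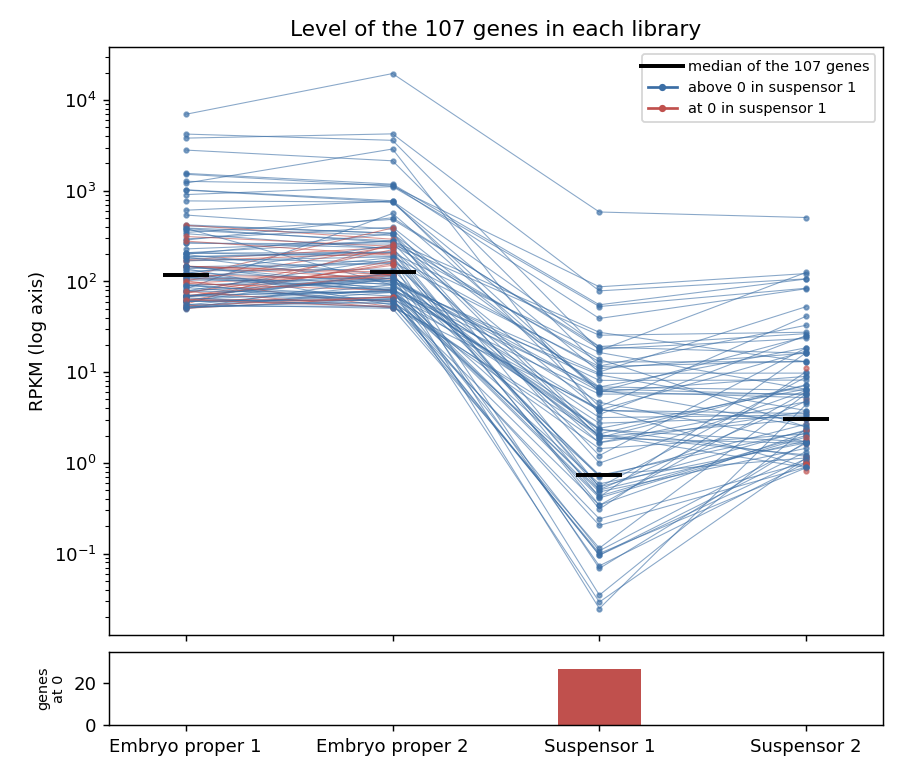
RPKM of each of the 107 genes in each of the 4 libraries, log axis (upper panel), and number of genes at 0 (lower panel). Each point is 1 gene in 1 library, and black bars are medians. Each line joins values above 0 of 1 gene in neighbouring libraries. Genes at 0 in suspensor replicate 1 are red, and their suspensor replicate 2 points are not joined. All genes lie above 50 RPKM in both embryo proper libraries. In suspensor replicate 1 the 27 genes at 0 are left off the log axis, and suspensor replicate 2 has no gene at 0.

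The 107 genes together held 5.87% of the summed RPKM in embryo proper replicate 1 and 8.28% in replicate 2, a mean of 7.07% ± 1.71 (SD, n = 2). In the suspensor they held 0.189% in replicate 1 and 0.259% in replicate 2, a mean of 0.224% ± 0.0496 (SD, n = 2). One gene accounted for most of the gap between the embryo proper replicates. Without it the others held 4.88% and 5.34% in embryo proper replicates 1 and 2, and 0.101% and 0.186% in the suspensor replicates. The 10 most abundant of the 107 genes carried 60.9% of the group's summed RPKM in embryo proper replicate 1 and 68.6% in replicate 2. The remaining 97 held the smaller part of that sum in both.

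Phvul.007G222000, on chromosome 7, was the most abundant of the 107 and the second most abundant of all genes in embryo proper mean. It measured 6973 RPKM in embryo proper replicate 1 and 19625 RPKM in replicate 2, and 583.6 RPKM and 507 RPKM in suspensor replicates 1 and 2. The groups did not overlap, which the rule requires of each of the 107. The embryo proper replicates differed 2.81-fold, more than the suspensor replicates did. The means were 13299 ± 8946 RPKM and 545 ± 54.0 RPKM (SD, n = 2 each). Its suspensor level, at 41377 and 34904 reads, was the highest of the group in both suspensor libraries. Its lower embryo proper value was 11.9 times its higher suspensor value.

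The second gene by mean, on chromosome 3, measured 3809 and 4244 RPKM in the embryo proper replicates and 78.8 and 107 RPKM in the suspensor replicates. The third, on chromosome 8, measured 4221 and 3601 RPKM in embryo proper and 17.3 and 126 RPKM in suspensor. The embryo proper values of each were close to one another. The third gene was far below embryo proper in both suspensor libraries, and lower in suspensor replicate 1 than in replicate 2. The fourth, on chromosome 9, measured 2811 and 2141 RPKM in embryo proper and 11.7 and 32.9 RPKM in suspensor, and the fifth, on chromosome 7, 1215 and 2889 RPKM against 3.42 and 25.3 RPKM. These last 2 had the largest ratios among the 10 most abundant, with lower embryo proper values 65.1 and 47.9 times the higher suspensor values.

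The genes of rank 6 to 10 stood between 776 and 1556 RPKM in every embryo proper library. The sixth, on chromosome 10, measured 1556 and 1183 RPKM in embryo proper and 55.3 and 106 RPKM in suspensor. The seventh, on chromosome 9, measured 1520.1 and 1125 RPKM against 87.3 and 122 RPKM, and the eighth, on chromosome 1, measured 1271 and 1161 RPKM against 39.1 and 83.2 RPKM. All 3 were higher in suspensor replicate 2 than in replicate 1 by no more than 2.13-fold. The ninth, on chromosome 7, measured 908 and 1112 RPKM in embryo proper and 53.0 and 84.2 RPKM in suspensor. The gene of rank 10, on chromosome 8, measured 1026 and 776 RPKM in embryo proper and 4.15 and 41.4 RPKM in suspensor, so its suspensor replicates lay 9.98-fold apart.

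Only 1 of the 107 genes was among the 10 highest genes of the embryo proper by mean, 4 were among the 20 highest and 9 among the 100 highest. The order within the group was similar in both replicates. Of the 10 most abundant members in embryo proper replicate 1, 9 were among the 10 most abundant in replicate 2, and 15 of the 20 most abundant were shared. Across the 107 genes, Pearson's r of log2(RPKM + 1) between the embryo proper replicates was 0.89 and Spearman's rho 0.78. Across the other 1447 genes at 50 RPKM or more in both, they were 0.89 and 0.79. These correlations run across genes of the same 2 libraries and carry no test.

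**Figure D2:**
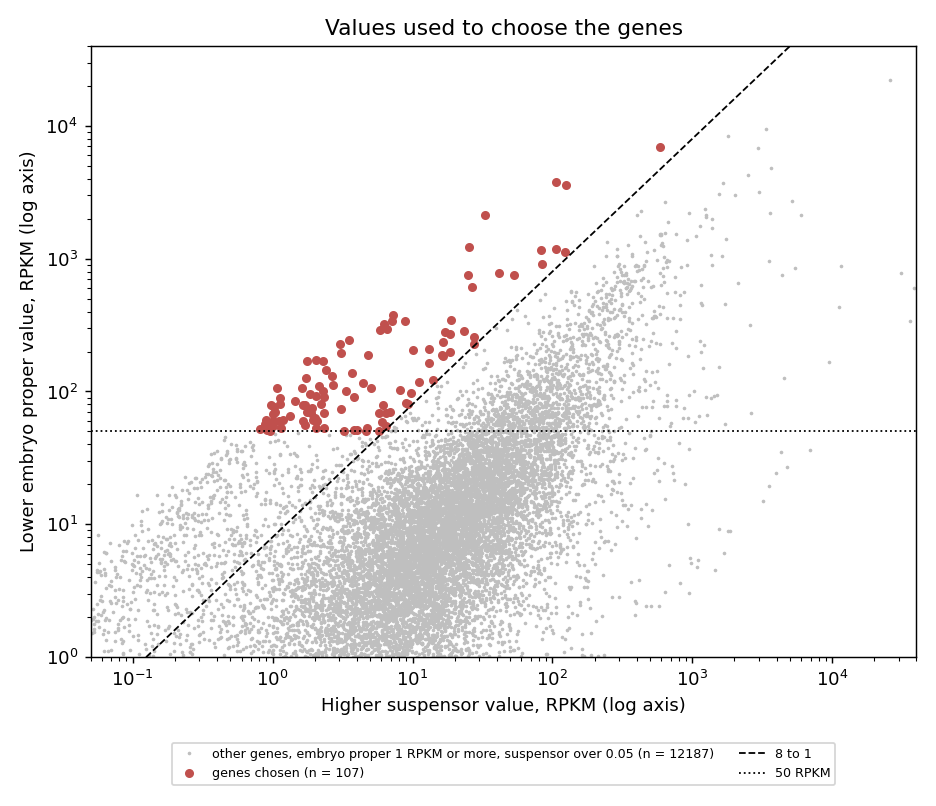
The values used to choose the genes, on log axes: the higher suspensor value of each gene against its lower embryo proper value, in RPKM. Red points are the 107 chosen genes, grey points other genes with a lower embryo proper value of 1 RPKM or more and a higher suspensor value over 0.05 RPKM, and the lines are the limits of 50 RPKM and of 8 to 1. The chosen genes lie above both lines, and the largest ratio among them is 99.2.

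The ratio of the lower embryo proper to the higher suspensor value had a median of 35.6 and a range of 8.31 to 99.2. It was between 8 and 16 for 34 genes, between 16 and 32 for 18, between 32 and 64 for 37, and 64 or more for 18. The gene with the largest ratio, Phvul.003G185300 on chromosome 3, measured 146 and 107 RPKM in the embryo proper replicates, nothing in suspensor replicate 1 and 1.08 RPKM, or 99 reads, in replicate 2. It was low in both suspensor libraries, and without reads in the first, where its embryo proper mean was at least 4000.5-fold higher than the level of 3 reads. The next by ratio was a gene on chromosome 7 of rank 40, with 169 and 205 RPKM in embryo proper, no read in suspensor replicate 1 and 22 reads, or 1.77 RPKM, in replicate 2. Ranks 36 on chromosome 9 and 80 on chromosome 3 followed with ratios of 85.0 and 81.7, and both were at 0 in suspensor replicate 1. The fifth, of rank 66 on chromosome 2, differed from these in having reads in both suspensor libraries, at 0.733 and 1.13 RPKM against 89.2 and 117 RPKM in embryo proper. Level and ratio were nearly unrelated within the group, with a Spearman's rho of −0.12 between embryo proper mean and ratio.

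The thresholds cut through a continuous range. The last genes inside the 8 to 1 limit had ratios of 8.31, 8.45 and 8.56, and the first outside it had ratios of 7.57, 7.56 and 7.42. One of those outside, on chromosome 8, measured 485 and 413 RPKM in embryo proper against 55.6 and 29.5 RPKM in suspensor, above the median of the genes chosen. At the level limit, the lower embryo proper value of the last genes inside was 50.3, 50.4 and 50.5 RPKM, and that of the first outside was 48.6, 48.1 and 47.2 RPKM. Another 90 genes met the 8 to 1 limit with a lower embryo proper value between 25 and 50 RPKM.

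The residual level in the suspensor differed between its replicates, which is a measure the rule did not fix. Of the 107 genes, 88 were higher in suspensor replicate 2, or 82.2%, and 19 in replicate 1. Among the other genes abundant in embryo proper, 49.9% were higher in replicate 2. A level in replicate 2 at least 2 times that in replicate 1 was seen in 69 genes, or 64.5%, where 17.1% of all tested genes showed it. The opposite, replicate 1 at least 2 times replicate 2, was seen in 8 genes, or 7.48%, where 29.8% of all tested genes showed it. Among the other 1447 genes abundant in embryo proper the shares were 9.12% and 8.43%. None of these sets was matched to the 107 genes in suspensor level. The values were RPKM with no further scaling. Median ratio scaling would divide suspensor replicate 1 by 1.24 and replicate 2 by 0.902, and these shares were not computed under it. With 1 library on each side there is no test of this difference.

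In suspensor replicate 1, 27 of the 107 genes had 0 reads and another 5 had between 1 and 9 reads. No gene was at 0 in suspensor replicate 2, where the 27 genes had between 8 and 576 reads and a median of 1.73 RPKM. The 27 genes were 25.2% of the 107. Among the 14214 tested genes whose higher suspensor value lay between 0.815 and 583.6 RPKM, the range of all 107, 0.816% had 0 reads in replicate 1. In replicate 2, 0.415% of the same 14214 genes had 0 reads, so the absence of such genes among the 107 is near that share. The genes behind these shares were not matched in level within that range. The 27 genes had embryo proper means between 57.7 and 354 RPKM. In replicate 1, 3 reads of these genes correspond to between 0.0208 and 0.668 RPKM, and the embryo proper means were between at least 162-fold and at least 10329-fold higher than that limit, depending on gene length and level.

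As a share of the embryo proper mean, the level in suspensor replicate 2 was never below 0.850%, with a median of 2.06%, and it lay between 0.850% and 2% in 53 of the 107 genes. In suspensor replicate 1 the share ranged from 0 to 10.8% with a median of 0.472%, and 55 genes were at or below 0.5%. Spearman's rho between embryo proper mean and suspensor level was 0.76 for replicate 2 and 0.43 for replicate 1 across the 107 genes. The rule caps both suspensor values by the embryo proper level, so part of each correlation is built in. In less abundant genes the share in replicate 2 was at least 0.914% in the 1325 genes with a lower embryo proper value of 25 to 50 RPKM and at least 0.575% in the 2962 genes of 10 to 25 RPKM, and none of these was at 0 in replicate 2. In replicate 1, 24 and 85 genes of these 2 classes were at 0. Because the rule takes the higher suspensor value, replicate 2 set the ratio of 88 of the 107 genes, and of all 18 genes with a ratio of 64 or more. The part that carry-over of embryo proper RNA or reads into suspensor replicate 2 has in these values was not tested.

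**Figure D3:**
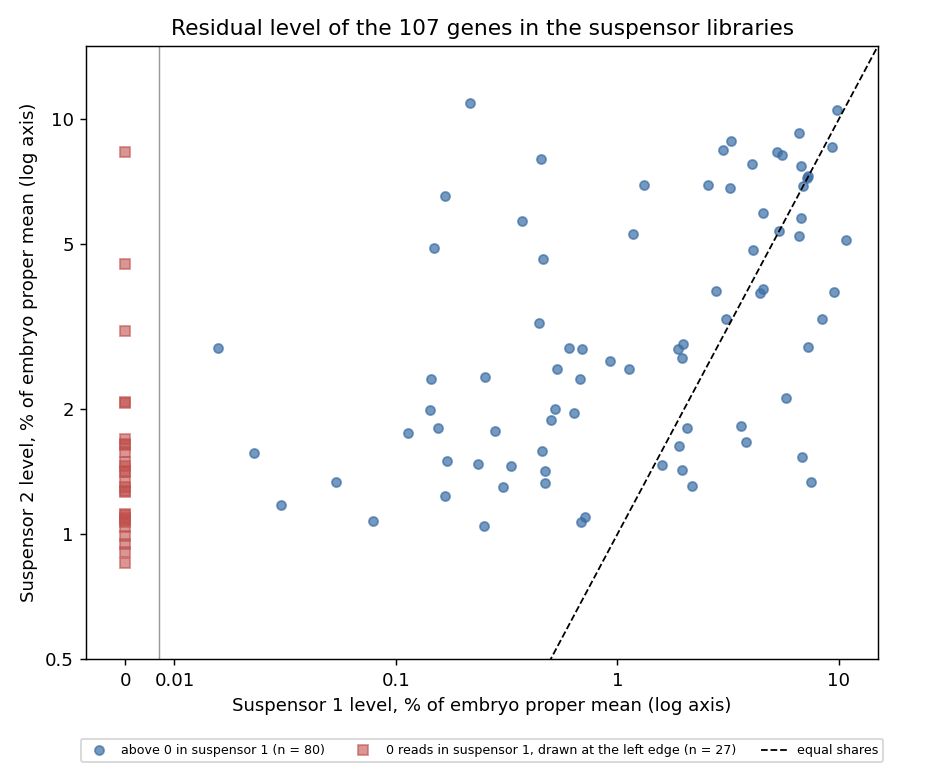
Level of each of the 107 genes in suspensor replicate 1 (horizontal) and suspensor replicate 2 (vertical), each as a percentage of the gene's embryo proper mean, on log axes. Blue points are the 80 genes with reads in replicate 1, red squares at the left edge are the 27 genes with 0 reads there, and the dashed line marks equal shares. No gene lies below 0.850% in replicate 2, while shares in replicate 1 reach 0.

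Genes with a clear level in both suspensor libraries formed another portion of the group. In 28 genes the level was at least 2% of the embryo proper mean in both suspensor replicates, with no fewer than 113 reads in replicate 1. Their replicates were closer, with 19 of the 28 within 2-fold and a median of replicate 2 over replicate 1 of 1.04. Their shares of the embryo proper mean had medians of 5.66% and 6.39%. The 55 genes at or below 0.5% in replicate 1 were all higher in replicate 2, where their median share was 1.49%. Since the portions were drawn from the suspensor values themselves, they are a description. The median embryo proper means were 184 RPKM and 128 RPKM.

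Single genes show the range of these differences. The gene of rank 45 on chromosome 2 measured 198 and 117 RPKM in embryo proper, with 2 reads in suspensor replicate 1 and 346 reads, or 4.41 RPKM, in replicate 2. Rank 47 on chromosome 11, at 145 and 161 RPKM in embryo proper, had 3 and 200 reads in the suspensor replicates, and rank 71 on chromosome 8 had 4 and 151 reads. In reads, these 3 were near 0 in the first suspensor library only. Rank 107 on chromosome 7, the least abundant of the group at 55.8 and 50.5 RPKM, had 0.115 and 5.79 RPKM in suspensor, a 50.5-fold difference between the replicates. Rank 30 on chromosome 1 measured 268 and 234 RPKM in embryo proper and 0.420 and 16.4 RPKM in suspensor, 39.0-fold apart. In the opposite direction, rank 41 on chromosome 7 measured 13.9 RPKM in the first suspensor library and 2.49 RPKM in the second, which was 5.58-fold lower. No gene was at least 10 times higher in suspensor replicate 1 than in replicate 2, whereas 14 genes with reads in both were at least 10 times higher in replicate 2. Of the 27 genes at 0 in replicate 1, 23 had a level in replicate 2 at least 10 times that of 3 reads in replicate 1, and the lowest was 2.75 times. Among the other 1447 abundant genes, not matched in suspensor level, 12 were at least 10 times higher in replicate 2 and 3 in replicate 1.

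The embryo proper replicates differed less. The rule favours this, since it asks for a high value in both of them and only caps the suspensor values. Of the 107 genes, 51 were higher in embryo proper replicate 1 and 56 in replicate 2, and 75, or 70.1%, lay within 1.5-fold. Among the other 1447 abundant genes, 863 were higher in replicate 1 and 584 in replicate 2, and 64.1% lay within 1.5-fold. For the 107 genes, the median SD of log2(RPKM + 1) within a region was 0.28 for embryo proper and 0.75 for suspensor. For the other 1447 abundant genes it was 0.30 in both regions. These sets were not matched in suspensor level. The 107 had suspensor medians of 0.733 and 3.07 RPKM, with 27 at 0 in replicate 1, where none of the others was. Differences of 2-fold or more between the embryo proper replicates were unevenly split. In 13 genes, or 12.1%, replicate 2 was at least 2 times replicate 1, where 4.77% of the other abundant genes showed it. In 2 genes, or 1.87%, replicate 1 was at least 2 times replicate 2, where 5.6% of the others showed it. With 1 library on each side this is a description. The values were not rescaled, where median ratio scaling would divide embryo proper replicate 1 by 1.11 and replicate 2 by 0.950.

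The gene that differed most between the embryo proper replicates had rank 24 and lay on chromosome 9. It measured 82.5 RPKM in replicate 1 and 563 RPKM in replicate 2, 6.82-fold apart, and 6.07 and 8.98 RPKM in the suspensor replicates. Its lower embryo proper value was 9.18 times its higher suspensor value, where the rule asks for at least 8 times. Rank 46 on chromosome 8 measured 56.2 and 258 RPKM in embryo proper, rank 31 on chromosome 3 measured 112 and 389 RPKM, and rank 48 on chromosome 9 measured 73.5 and 224 RPKM. These 3 were at 0 in suspensor replicate 1 and between 1.71 and 3.09 RPKM in replicate 2. The largest difference the other way was in the one gene placed on no chromosome, of rank 33, with 385 and 91.1 RPKM in embryo proper and 3.80 and 3.50 RPKM in suspensor. Rank 70 on chromosome 9 was next, at 138 and 54.9 RPKM. Rank 83 on chromosome 4, rank 51 on chromosome 1 and rank 59 on chromosome 2 were between 1.83-fold and 1.93-fold higher in replicate 1.

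**Figure D4:**
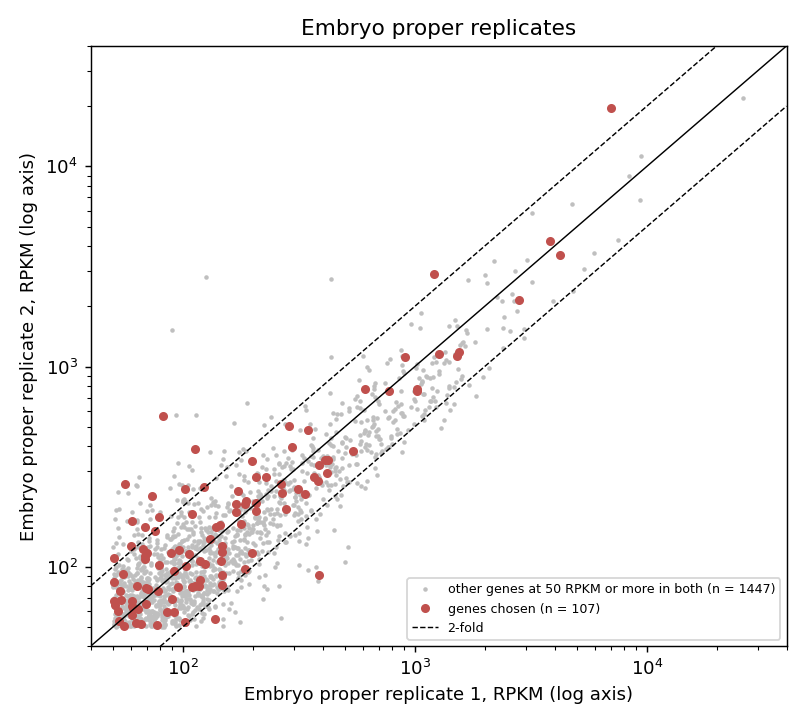
RPKM in embryo proper replicate 1 (horizontal) and replicate 2 (vertical), both 50 or more, on log axes for the 107 genes (red) and the other 1447 genes at or above that level in both (grey). The solid line marks equal values and the dashed lines 2-fold differences. Among the 107 genes, 13 lie on or above the upper dashed line and 2 on or below the lower one.

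The rule asks for a high value in both embryo proper libraries, and the libraries taken singly gave more genes. On embryo proper replicate 2 alone, 137 further genes met both limits, of which 124 were under 50 RPKM in replicate 1. Their medians were 76.3 RPKM in replicate 2 and 21.1 RPKM in replicate 1. The most abundant of them, on chromosome 2, measured 126 and 2805 RPKM in the embryo proper replicates and 63.0 and 304 RPKM in the suspensor replicates, so its lower embryo proper value was below its higher suspensor value. On replicate 1 alone, 58 further genes met both limits, 40 of them under 50 RPKM in replicate 2, with medians of 71.8 and 38.7 RPKM. The most abundant of these, on chromosome 10, measured 835 and 486 RPKM in embryo proper and 50.8 and 81.8 RPKM in suspensor. None of the genes added in this way was at 0 in the other embryo proper library. A single suspensor library added 35 genes for replicate 1 and 26 for replicate 2.

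The genes chosen were found on all 11 chromosomes, from 16 on chromosome 1 and 14 each on chromosomes 2 and 8 to 4 on chromosome 6. As a share of the genes at 50 RPKM or more in both embryo proper libraries, they ranged from 3.25% on chromosome 6 to 9.64% on chromosome 1. On chromosome 7, which holds the most abundant gene, 12 genes carried 1.46% of all summed RPKM in embryo proper replicate 1, more than those of any other chromosome in that library.

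**Figure D5:**
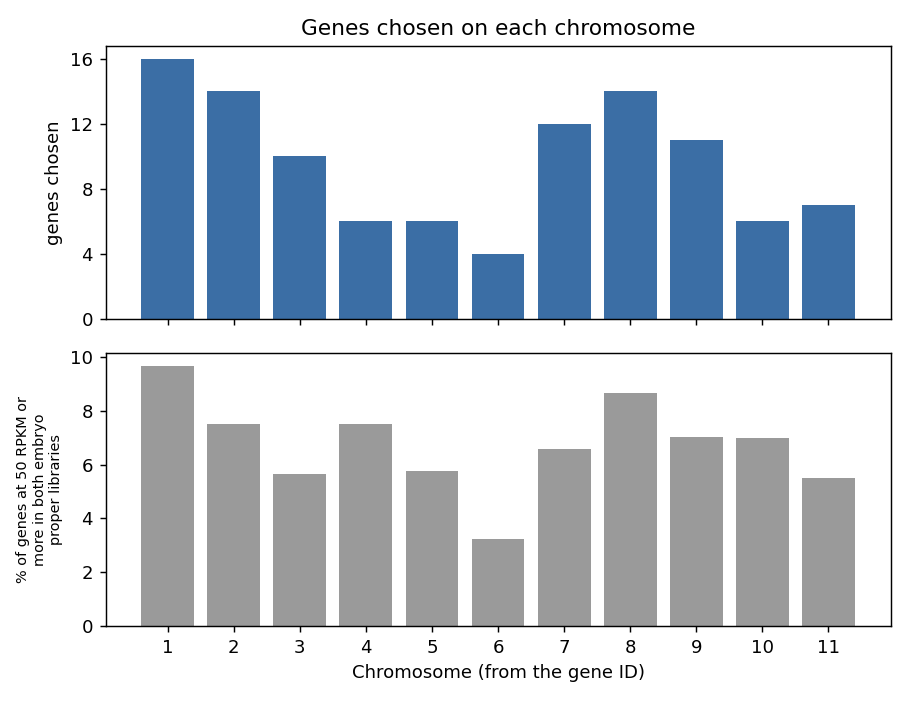
Number of the chosen genes on each chromosome (upper panel) and the same as a percentage of those at 50 RPKM or more in both embryo proper libraries (lower panel). Chromosome 1 has the most, 16 genes or 9.64%, and chromosome 6 the fewest, 4 genes or 3.25%, and 1 gene placed on no chromosome is left out.

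Most of the genes stood alone along the chromosome. In 2 pairs, the 2 genes followed each other in ID order among the listed genes. The pair on chromosome 8 held ranks 49 and 37. The first measured 138 and 158 RPKM in embryo proper and 1.66 and 3.69 RPKM in suspensor, and the second 188 and 213 RPKM against 0.507 and 4.78 RPKM. Both were slightly higher in embryo proper replicate 2 and higher in suspensor replicate 2. The listed genes on either side of this pair were not raised in embryo proper, with 0.280 and 2.22 RPKM before it and 0.0816 and 0 RPKM after it in the embryo proper replicates. The pair on chromosome 9 held ranks 73 and 65, at 109 and 79.0 RPKM and at 96.0 and 121 RPKM in embryo proper, with no more than 1.84 RPKM in either suspensor library. Their recovered lengths were 2134 and 79 bp. Whether neighbouring genes share reads could not be told from the files, so the values of both pairs are uncertain.

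The recovered gene length, which is a lower bound, had a median of 1493 bp with quartiles of 980 and 1983 bp, against 1267 bp with quartiles of 858 and 1870 bp in the other 1447 abundant genes. The range was 79 to 4719 bp, and 4 of the 107 were under 400 bp. Genes at 0 in suspensor replicate 1 had a median of 1017 bp and the others 1523 bp. The length of a gene at 0 was recovered from fewer libraries, which can make the lower bound lower. A shorter gene also gives fewer reads at the same RPKM, which makes 0 reads more likely. The part of either in this difference was not tested.

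With the regions exchanged, the same limits chose 135 genes abundant in suspensor. They held 20.5% and 22.0% of the summed RPKM in suspensor replicates 1 and 2, a larger share of their region than the 5.87% and 8.28% of the embryo proper genes. Of these, 20 had a mean of 1000 RPKM or more, against 9 of the embryo proper genes. Their median ratio of lower to higher value was 28.0 and the largest 205, and 44 reached 64. None was at 0 in either embryo proper library, where their lowest shares of the suspensor mean were 0.227% in replicate 1 and 0.295% in replicate 2. Both sets were chosen on these values, so no test of the differences between them is given.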

How the data were processed

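Laser-captured embryo proper and suspensor were sequenced in 2 libraries each. The authors deposited 1 table of RPKM values per library, and the submitters' processing notes list Bowtie 0.12.7 and also bedtools, with no settings. The sources used here do not give the genome build, the annotation, the strand or how reads with several matches were counted, so values of near-identical or overlapping genes are uncertain. Genes not listed in a table were set to 0. The files pair no ID with a name, and of the 20961 IDs, 0 were found among 34165 RefSeq genes.

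Library totals, gene lengths between 30 and 20000 bp and reads were recovered from the steps of the values. In simulated data, 96.2% of 1557 genes at 50 RPKM or more in both embryo proper libraries came back with the right reads; the rest were too low. In a 1 kb gene, 3 reads, the limit a count of 0 allows, are 0.0409 to 0.0544 RPKM.

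Regions were compared with limma 3.58.1 (R 4.3.3, Python 3.11.15 otherwise) on log2(RPKM + 1) with a trend and no replicate block. The 15169 genes that reached 1 RPKM in 2 libraries or more were tested. The fit was checked on simulated data, where it called most of the larger changes and missed most of the smaller ones. Adjusted p-values are Benjamini-Hochberg. The genes, groupings and lists were chosen with earlier results of these data known. Genes were named by rank in level, ratio and replicate difference, by adjacency and by closeness to the limits. Product name lists could not be applied. Alternatives were other limits, scalings, pseudocounts, filters, priors, the block, and each library left out.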

Additional observations from a re-analysis of the deposited data

How the results depend on the processing

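The number of genes chosen, 107, was 197 with a minimum of 25 RPKM, 54 with 100 RPKM and 176 with a factor of 4, all by construction. It stayed within 1.5 times with a factor of 16 and under both scalings, with 95 of the 107 kept under median ratio scaling and all 107 under 75th percentile scaling. With 1 library left out it ranged from 133 to 244. The embryo proper share of summed RPKM, 7.07%, was 6.76% as a share of recovered reads. It was 5.69% without the 10 genes of highest mean over all libraries, of which 1 was among the 107. Both moves of the share were below its SD. Leaving out either embryo proper library gave 8.28% and 5.87%, where with n = 2 a move below the SD holds by construction. With 1 library left out, the median ratio of means, 59.3, ranged from 48.4 without suspensor replicate 1 to 212 without suspensor replicate 2, the library in which none of the genes is at 0. Taken as the lower embryo proper over the higher suspensor value it was 35.6, by construction lower, and under both scalings 60.6 and 61.5. In limma, 842 genes and all 107 chosen genes were called higher in embryo proper. With no filter on low values 0 and 0 were called, although 2173 and 107 had an unadjusted p under 0.05; the cause was not tested. Limma-voom on the recovered reads, an alternative added after seeing the data, gave 430 and 96. Where 1 library was left out, its lone partner had to be assumed as variable as the other region's pair, and limma called from 0 to 618 for all genes and from 0 to 92 for those chosen. The counts of 0 came without suspensor replicate 1 or 2, where 1728 and 1418 genes had an unadjusted p under 0.05. With the replicate block, 1035 genes and all 107 were called. The labels do not say that a shared replicate number marks shared material, so the numbers are not taken to pair the libraries. The deviations of libraries with the same number had a correlation of 0.07 across genes, which with 2 libraries per region cannot decide this. Counting error is largest for the lowest suspensor values, since counts there go down to 0 and 8 reads in replicates 1 and 2.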
